A study of Drosophila melanogaster with 9 samples.

Results

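The genes hb, Kr, nub, pdm2, cas and svp encode the transcription factors of the temporal series of embryonic neuroblasts, the neural stem cells of the fly, together with the factor that switches its earliest step off. They were taken by name, 6 of the 16364 genes counted, and their RNA levels were read in intermediate neural progenitors (INPs) of the larval brain. INPs are the transit-amplifying daughters of type II neuroblasts and run through a temporal series of their own, from Dichaete (D) to Grainyhead (Grh) to Eyeless (Ey). The question was which genes of the embryonic series are present in INPs, and whether their levels differ between the D+, Grh+ and Ey+ states.

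In the embryonic nerve cord a neuroblast expresses Hunchback (hb), then Krüppel (Kr), then the paired POU factors Nubbin (nub) and Pdm2 (pdm2), then Castor (cas) and in many lineages Grainyhead, and the factor present at a division helps set the identity of the neurons born from it. Seven-up (svp), a nuclear receptor of the COUP-TF family, ends the Hunchback window. In larval life Castor and Seven-up are also present early in type II neuroblasts, where Seven-up acts in the switch from early to late neuroblast gene expression.

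Wild-type wandering larvae of the last instar, grown for 5 days at 29 °C after egg-laying, carried UAS-cd8::tdTomato driven by erm-GAL4, which labels INPs, together with D-GFP, Grh-GFP or Ey-GFP. The D-GFP allele was a knock-in at the D locus, whereas Grh-GFP and Ey-GFP were extra gene copies on BAC clones inserted at the same site. The states thus also differed in the tagged line. For each library 6000 to 7000 of the largest, brightest doubly labelled cells were sorted, and each state had 3 libraries, 9 in all. The labels do not say whether the libraries of a state came from separate crosses or dissections, so p-values measure the spread between these libraries. The names of the deposited counts carry an identifier that was read here as that of the flow cell. No label states the sequencing run, and this reading is the only source for it. By this reading the D+ libraries came from another run than the Grh+ and Ey+ libraries, which shared a run. State, line and run as read here cannot be told apart in a comparison with D+.

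Counts on genes ranged from 11266164 to 23184025 per library, and 11048 to 15568 genes had a count. RPM stands for a gene's counts scaled to 1000000 counts on genes in its library. The 8 neuroblast and INP markers were detected in every library, with summed levels of 2654 to 4277 RPM, the lowest in Ey+ replicate 1. Neuron markers were present in every library too, with 6 genes summing to 193.9 to 997.8 RPM in D+, 396.7 to 843.5 RPM in Grh+ and 666.5 to 2763 RPM in Ey+ libraries, although 2 of them were at 0 in D+ replicate 2. Most of each sum was elav, at 184.6 RPM in D+ replicate 2 and 2704 RPM in Ey+ replicate 1. nSyb, brp, Syt1, futsch and Syn had state means between 1.11 and 14.1 RPM. In the paper's staining, all sorted cells were positive for the progenitor protein Dpn and for the temporal marker of their state. The 6 glial markers summed to 902.3 to 1835 RPM in D+, 1529 to 1935 RPM in Grh+ and 1060 to 1330 RPM in Ey+ libraries, most of it Eaat1 and nrv2. Grh+ replicate 2 stood apart from the other libraries of its state, with the most genes detected (15568) and the highest sums of the 4 hemocyte markers (21.3 RPM, against 1.07 to 6.76 RPM in the other libraries) and of the 4 muscle markers (18.0 RPM, against 1.69 to 4.97 RPM), while the 4 fat body markers summed to 0.0888 to 4.19 RPM over all libraries.

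The 6 genes fell into 3 levels. cas was among the most abundant messages of all INPs, svp was scarce in D+ INPs and abundant in Grh+ and Ey+ INPs, and hb, Kr, nub and pdm2 stayed under a mean of 10 RPM in every state. A gene was called changed when edgeR's quasi-likelihood test gave an adjusted p under 0.05, the log2 fold change was over 1 in size and the mean was over 10 RPM in at least 1 state. All 6 genes passed the filter on low counts and were tested. By this rule 1 of the 6 changed between Grh+ and D+ INPs, where 3.16% of the 10193 genes tested were called, and 1 of 6 between Ey+ and D+ INPs, where 3.95% were called. That gene was svp in each case, and the comparisons share the D+ libraries. Between Grh+ and Ey+ INPs edgeR's quasi-likelihood test called 0 of the 6, against 0.235% of all genes tested. At an unadjusted p under 0.05 this comparison held 2 of the 6, nub and svp, where 8.43% of all genes tested were under that p, and DESeq2 called 0 of the 6 and 173 genes in all.

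**Figure D1:**
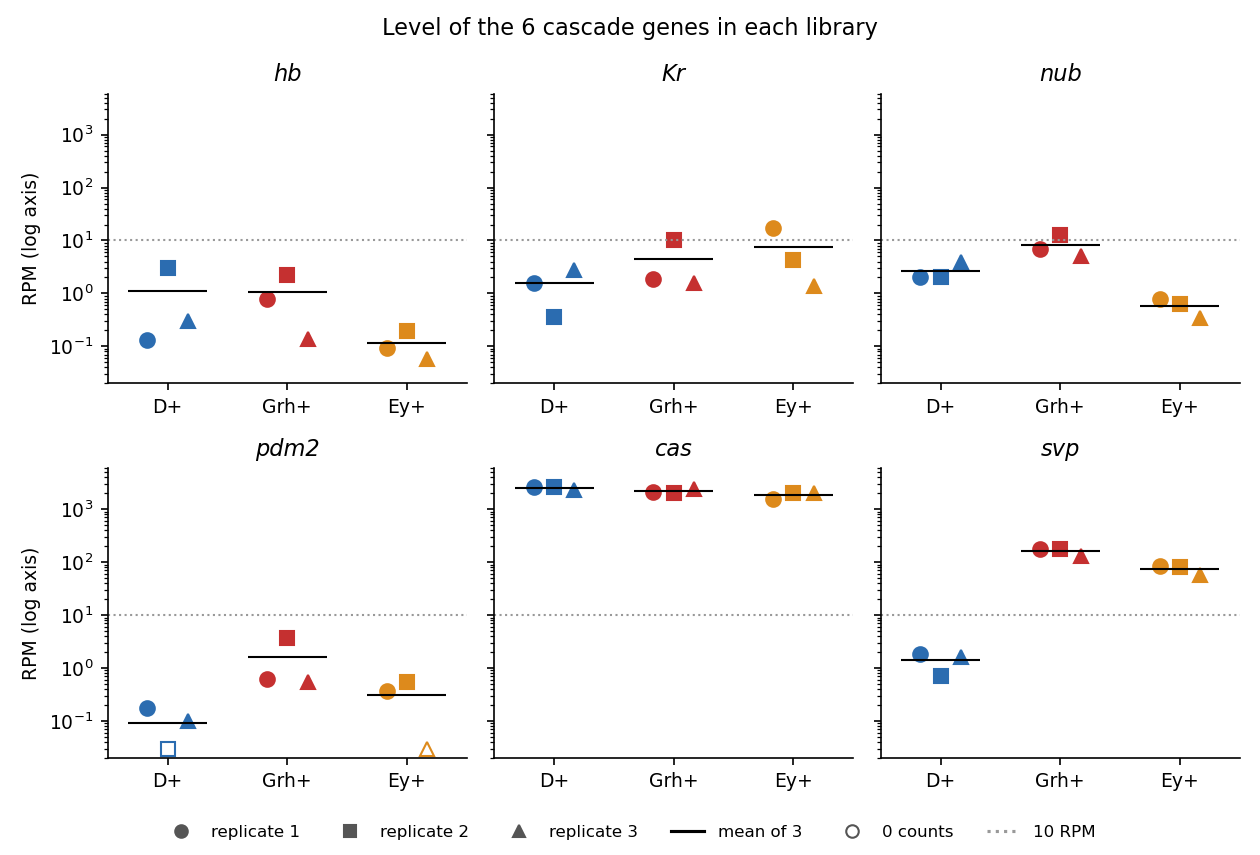
RPM of each gene in each of the 9 libraries on a log axis, by INP state, with replicate numbers as symbols, the mean of 3 libraries as a bar, open symbols for 0 counts and a dotted line at 10 RPM. svp moves from 0.716 to 1.86 RPM in D+ libraries to 56.7 RPM or more in the other states, cas stays between 1548 and 2629 RPM, and the other 4 genes lie mostly under the dotted line.

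svp showed the widest difference of the series. It lies on chromosome 3R from 12258737 to 12302785 on the plus strand (BDGP6.54 annotation of the Release 6 assembly; FBgn0003651), with 5 annotated transcripts. In D+ INPs it had 43, 14 and 33 counts in replicates 1, 2 and 3, or 1.86, 0.716 and 1.63 RPM. In Grh+ INPs it had 1990, 3716 and 1983 counts, or 176.6, 179.1 and 133.5 RPM. In Ey+ INPs it had 1868, 1684 and 989 counts, or 85.8, 82.8 and 56.7 RPM. The libraries of the 3 states did not overlap, with Grh+ highest, Ey+ between and D+ lowest.

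The mean svp level was 1.40 ± 0.604 RPM (SD, n = 3) for D+ INPs and rose to 163.1 ± 25.7 RPM for Grh+ INPs, a 103-fold difference in the fit (log2 fold change 6.69, SE 0.42, 95% interval 5.75 to 7.64, adjusted p = 0.000271 by edgeR's quasi-likelihood test). In Ey+ INPs the mean was 75.1 ± 16.0 RPM, 59.7-fold above D+ INPs (log2 fold change 5.90, SE 0.41, 95% interval 4.98 to 6.82, adjusted p = 0.000111 by the same test). Both calls held in each of 16 alternative settings, where the largest adjusted p was 0.003 and 0.0024. Between Grh+ and Ey+ INPs, which shared the run identifier, svp was 1.73-fold higher in Grh+ INPs (log2 fold change 0.79, SE 0.32, 95% interval 0.07 to 1.51). This difference did not pass edgeR's quasi-likelihood test (adjusted p = 0.534, unadjusted p = 0.0344). With the libraries rescaled by TMM the groups still did not overlap, at 121.3 to 161.6 CPM in Grh+ and 55.1 to 115.9 CPM in Ey+ libraries, and an exact permutation test (two-sided) on the RPM values gave p = 0.1, the smallest that 3 against 3 libraries allow. In RNA from sorted pools, a change in the share of cells that express svp and a change in the RNA per cell cannot be told apart. The low glial marker moody, a receptor of the blood-brain barrier glia, also differed between D+ libraries and the others, at 0.297 to 1.17 RPM in D+, 7.47 to 8.26 RPM in Grh+ and 6.07 to 6.71 RPM in Ey+ libraries, with log2 fold changes of 3.05 (adjusted p = 0.0112) and 3.03 (adjusted p = 0.00954) against D+ INPs by edgeR's quasi-likelihood test, and its mean under 10 RPM kept it from the call. Gs2 had log2 fold changes of 1.48 (adjusted p = 0.0655) and 1.29 (adjusted p = 0.0857) by the edgeR test, and DESeq2 called it in both comparisons with D+ INPs. The defining glial gene repo had log2 fold changes of 0.68 (adjusted p = 0.487) and 0.23 (adjusted p = 0.818) by the edgeR test, with a mean under 10 RPM, too low for a call. alrm, also under a mean of 10 RPM, had 1.63 (adjusted p = 0.118) and 0.94 (adjusted p = 0.315) by the edgeR test. Eaat1 and nrv2, most of the glial sum, had 0.24 and -0.15 in Grh+ and -0.18 and -0.09 in Ey+ against D+ INPs and were not called. The part of glial RNA in the svp values was not tested.

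Genes that overlap svp held few counts. The annotation places 7 genes within the svp span, on the same strand, of which CG44037 shares 115 bp of exon with it, 2.06% of the svp exons. These 7 genes had between 0 and 19 counts in any library, and most of those counts were in Grh+ replicate 2.

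**Figure D2:**
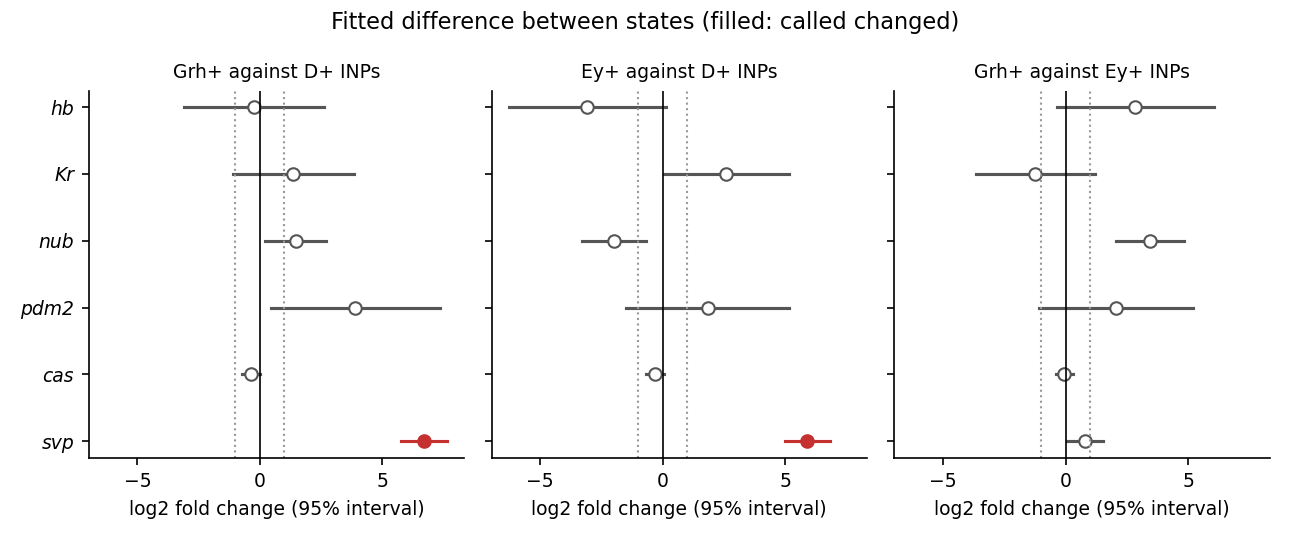
Fitted log2 fold change (points) with 95% interval (lines) of each gene in the 3 comparisons, with filled red symbols for genes called changed and dotted lines at a log2 fold change of 1 in either direction. The svp values of 6.69 and 5.90 against D+ INPs stand clear of the rest, while cas has the narrowest interval and hb and pdm2 the widest.

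The 5 genes whose level over the 9 libraries was most like that of svp were sought among 6275 tested genes with a mean over 10 RPM in at least 1 state, by the root mean square difference of log2 levels centred on each gene's own mean. They were CG43163 (0.74 log2 units), ey (0.79), out (0.95), y (0.99) and twz (1.35). At least 4 of the 5 were the same in each of the 13 alternatives for which the search was repeated. ey encodes the Pax6 factor that defines the Ey+ state and was carried as an extra tagged copy in the Ey-GFP line. y (yellow) acts in cuticle pigmentation. Grh-GFP and Ey-GFP, but not D-GFP, were insertions at the same site, and the part of the tagged line in the y values was not tested.

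CG43163 averaged 1.28, 163.1 and 126.4 RPM across the D+, Grh+ and Ey+ states. ey itself averaged 12.8, 566.3 and 633.2 RPM in the same order. For CG43163 and ey, but not for svp, Grh+ and Ey+ libraries overlapped, with CG43163 at 95.7 to 199.4 RPM in Grh+ and 96.0 to 146.4 RPM in Ey+. The mean of out was 61.2 RPM for Grh+ and 19.9 RPM for Ey+ INPs, and its D+ libraries held 24, 0 and 0 counts. The mean of y was 11.9 RPM for Grh+ and 4.98 RPM for Ey+ INPs, with 0, 6 and 2 counts in D+ libraries, and its Grh+ libraries also lay above all Ey+ libraries. twz averaged 3.02, 37.1 and 23.8 RPM across D+, Grh+ and Ey+ INPs.

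**Figure D3:**
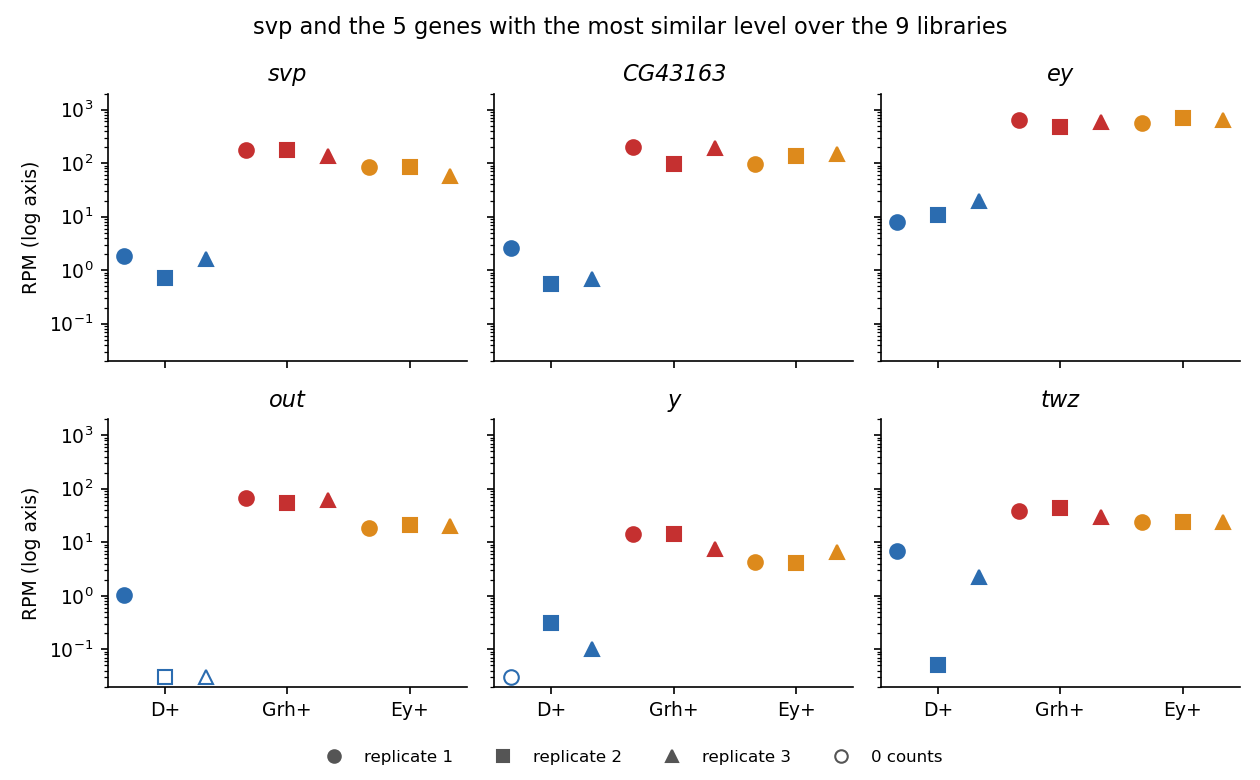
RPM of svp and of the 5 genes most like it in each library, on a log axis, with libraries grouped by state and open symbols for 0 counts. Each gene is low in all D+ libraries, between 0 and 19.9 RPM, and higher in every Grh+ and Ey+ library.

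Castor, the zinc finger factor of the late embryonic window, was abundant throughout. cas lies on chromosome 3R from 5712975 to 5716805 on the minus strand (FBgn0004878). Its D+ libraries held 60952, 50744 and 47489 counts, or 2629, 2596 and 2350 RPM. Its Grh+ libraries held 24051, 41397 and 35937 counts, or 2135, 1995 and 2419 RPM. Its Ey+ libraries held 33695, 41645 and 34775 counts, or 1548, 2049 and 1993 RPM. By mean RPM per kb of merged exons, cas stood at the 99.3 percentile of genes with a count in D+ INPs and at the 99.4 percentile in Grh+ and in Ey+ INPs.

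The mean of cas was 2525 ± 152.3 RPM (SD, n = 3) in D+, 2183 ± 215.7 RPM in Grh+ and 1863 ± 274.4 RPM in Ey+ INPs. In RPM its D+ and Ey+ libraries did not overlap, whereas Grh+ libraries overlapped with each of the other states. With the libraries rescaled by TMM, the D+ libraries (2379 to 2634 CPM) lay above the Grh+ (1772 to 2199 CPM) and the Ey+ libraries (1937 to 2091 CPM). The fitted differences were small and did not pass edgeR's quasi-likelihood test, with a log2 fold change of -0.36 (SE 0.16, 95% interval -0.72 to -0.0047, adjusted p = 0.204) for Grh+ against D+ and -0.32 (SE 0.16, 95% interval -0.67 to 0.04, adjusted p = 0.239) for Ey+ against D+ INPs. The intervals leave out a change of 2-fold in either direction for all 3 comparisons. Between Grh+ and Ey+ INPs the log2 fold change of cas was -0.05 (SE 0.16, adjusted p = 1.0 by edgeR's quasi-likelihood test), and it turned to 0.23 when libraries were scaled by their totals alone. That scaling moved the median of all genes tested from 0.00 to 0.16 for Grh+ against D+, from -0.02 to -0.14 for Ey+ against D+ and from 0.03 to 0.29 for Grh+ against Ey+ INPs.

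The genes of the series can be set side by side only per length. Per kilobase of merged exons, cas had 801.4 ± 48.4 RPM per kb in D+ INPs, 692.8 ± 68.5 in Grh+ INPs and 591.3 ± 87.1 in Ey+ INPs. svp was next in Grh+ INPs at 29.1 ± 4.59 RPM per kb and in Ey+ INPs at 13.4 ± 2.87 RPM per kb, and its libraries overlapped with those of no other gene of the series there. In D+ INPs svp, at 0.25 ± 0.11 RPM per kb, ranked with nub (0.51 ± 0.21), Kr (0.35 ± 0.27) and hb (0.30 ± 0.42), whose libraries overlapped from each gene to the next in that order. In Grh+ INPs nub (1.57 ± 0.75), Kr (1.02 ± 1.10), pdm2 (0.35 ± 0.40) and hb (0.28 ± 0.28 RPM per kb) followed svp, each overlapping with the next. In Ey+ INPs Kr (1.72 ± 1.88 RPM per kb) lay above nub (0.11 ± 0.042), pdm2 (0.066 ± 0.060) and hb (0.030 ± 0.019), of which each overlapped with the next. With the longest transcript in place of merged exons, 15 of the 18 ranks stayed the same.

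The POU pair nub and pdm2 was low in every state, and neither gene was called changed in any comparison. The genes are neighbours on chromosome 2L, nub from 12587625 to 12628135 (FBgn0085424) and pdm2 from 12657165 to 12686306 (FBgn0004394), both on the plus strand and 29029 bp apart. nub had 47, 40 and 80 counts in D+ libraries, 79, 263 and 76 in Grh+ libraries and 17, 13 and 6 in Ey+ libraries. These were 2.03, 2.05 and 3.96 RPM in D+, 7.01, 12.7 and 5.12 RPM in Grh+ and 0.781, 0.640 and 0.344 RPM in Ey+ libraries. The 3 states did not overlap, with Grh+ highest and Ey+ lowest.

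The mean of nub was 2.68 ± 1.11 RPM (SD, n = 3) in D+, 8.27 ± 3.93 RPM in Grh+ and 0.588 ± 0.223 RPM in Ey+ INPs. Between Grh+ and Ey+ INPs, which shared the run identifier, nub was 10.9-fold higher in Grh+ INPs (log2 fold change 3.45, SE 0.61, 95% interval 2.08 to 4.82). By edgeR's quasi-likelihood test the adjusted p was 0.0669, so that the difference was not called. DESeq2 gave an adjusted p of 4.6e-06 for it, and edgeR's quasi-likelihood test gave adjusted p = 0.0297 on the 6 libraries of these states alone, with the range over 16 alternatives running up to 0.411, reached without Grh+ replicate 2 and Ey+ replicate 1. In the settings with an adjusted p under 0.05 the mean of nub stayed under 10 RPM, so that it was not called in them either. Against D+ INPs nub had a log2 fold change of 1.47 in Grh+ INPs (SE 0.56, adjusted p = 0.146) and of -1.98 in Ey+ INPs (SE 0.59, adjusted p = 0.0682) by edgeR's quasi-likelihood test, which DESeq2 put at an adjusted p of 0.0153 for Ey+ INPs. The gene Ref2, whose span overlaps that of nub on the opposite strand with no shared exon, had 16, 10 and 57 counts in D+, 3, 71 and 0 in Grh+ and 2, 7 and 0 in Ey+ libraries.

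pdm2 was close to the limit of detection. It had 4, 0 and 2 counts in D+ libraries, 7, 78 and 8 in Grh+ libraries and 8, 11 and 0 in Ey+ libraries, where 3 counts correspond to 0.129 to 0.266 RPM. The mean was 0.0905 ± 0.0866 RPM (SD, n = 3) in D+, 1.64 ± 1.84 RPM in Grh+ and 0.303 ± 0.276 RPM in Ey+ INPs. Grh+ replicate 2 alone held 83.9% of the pdm2 counts of its state. The log2 fold change of Grh+ against D+ INPs was 3.90 (SE 1.55, 95% interval 0.44 to 7.36, adjusted p = 0.161 by edgeR's quasi-likelihood test), and without Grh+ replicate 2 it was 2.46 (SE 1.57). Ey+ INPs had a log2 fold change of 1.84 (SE 1.49, adjusted p = 0.46) against D+ INPs and Grh+ INPs 2.06 (SE 1.41, adjusted p = 0.859) against Ey+ INPs by the same test.

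hb, the zinc finger factor that opens the embryonic series, had few counts in most libraries. It lies on chromosome 3R from 8690980 to 8697822 on the minus strand (FBgn0001180). Its D+ libraries held 3, 58 and 6 counts, its Grh+ libraries 9, 47 and 2 counts and its Ey+ libraries 2, 4 and 1 counts. D+ replicate 2, at 2.97 RPM, held 86.6% of the hb counts of its state and Grh+ replicate 2, at 2.27 RPM, held 81.0% of those of its own. The other 7 libraries lay between 0.0573 and 0.799 RPM, and the states overlapped. D+ replicate 2 had the lowest sum of neuron markers of all libraries and the fewest genes detected, whereas Grh+ replicate 2 had the most genes detected.

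The mean of hb was 1.13 ± 1.59 RPM (SD, n = 3) in D+, 1.07 ± 1.09 RPM in Grh+ and 0.115 ± 0.0726 RPM in Ey+ INPs. By edgeR's quasi-likelihood test the log2 fold change was -0.23 (SE 1.28, adjusted p = 0.947) for Grh+ against D+, -3.08 (SE 1.44, adjusted p = 0.204) for Ey+ against D+ and 2.85 (SE 1.43, adjusted p = 0.672) for Grh+ against Ey+ INPs. The value for Ey+ against D+ moved to -0.70 without D+ replicate 2, and that for Grh+ against D+ turned to 2.11. No difference in hb was thus detectable at this depth and spread.

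Kr, the zinc finger factor that follows Hunchback, varied more between libraries than between states. It lies on chromosome 2R from 25226611 to 25231394 on the plus strand (FBgn0001325). Its D+ libraries held 37, 7 and 55 counts, or 1.60, 0.358 and 2.72 RPM. Its Grh+ libraries held 21, 210 and 23 counts, or 1.86, 10.1 and 1.55 RPM. Its Ey+ libraries held 370, 88 and 24 counts, or 17.0, 4.33 and 1.38 RPM. The 3 states overlapped, with the high values in Ey+ replicate 1 and Grh+ replicate 2.

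The mean of Kr was 1.56 ± 1.18 RPM (SD, n = 3) in D+, 4.51 ± 4.86 RPM in Grh+ and 7.57 ± 8.30 RPM in Ey+ INPs. By edgeR's quasi-likelihood test the log2 fold change was 1.37 (SE 1.11, adjusted p = 0.517) for Grh+ against D+, 2.60 (SE 1.14, adjusted p = 0.181) for Ey+ against D+ and -1.23 (SE 1.09, adjusted p = 0.958) for Grh+ against Ey+ INPs. Without Grh+ replicate 2 the first of these was 0.02, and without Ey+ replicate 1 the others were 0.91 and 0.47.

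The Grh+ and the Ey+ library highest in Kr also held the most neuron marker RNA of their state. The 6 neuron markers summed to 997.8, 193.9 and 623.5 RPM in D+ replicates 1, 2 and 3, to 471.2, 843.5 and 396.7 RPM in Grh+ libraries and to 2763, 1171 and 666.5 RPM in Ey+ libraries. Most of each sum was elav. Its log2 fold change of Grh+ against Ey+ INPs was -1.96, whereas the median over the 6 markers was 0.15. Against D+ INPs the median over the 6 markers was 1.45 in Grh+ and 1.67 in Ey+ INPs, beside 0.00 and -0.02 for all genes tested. Without Grh+ replicate 2 the first of these was 0.64, and without Ey+ replicate 1 the second was 0.57. None of the 6 markers was called in any comparison. Within Grh+ and within Ey+ the libraries had the same order by the marker sum as by Kr. Within D+, replicate 2 was lowest for both while the other libraries changed places. Kr also lies within an intron of CG9380, a gene on the opposite strand with no exon in common, and the counting ignored strand. CG9380 had 24.3, 2.97 and 15.7 RPM in D+, 29.5, 42.6 and 29.4 RPM in Grh+ and 77.4, 49.1 and 40.8 RPM in Ey+ libraries. It was not called changed in any comparison (adjusted p = 0.0648 for Ey+ against D+ INPs by edgeR's quasi-likelihood test). The part of neuronal RNA and of CG9380 transcripts in the Kr values was not tested.

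**Figure D4:**
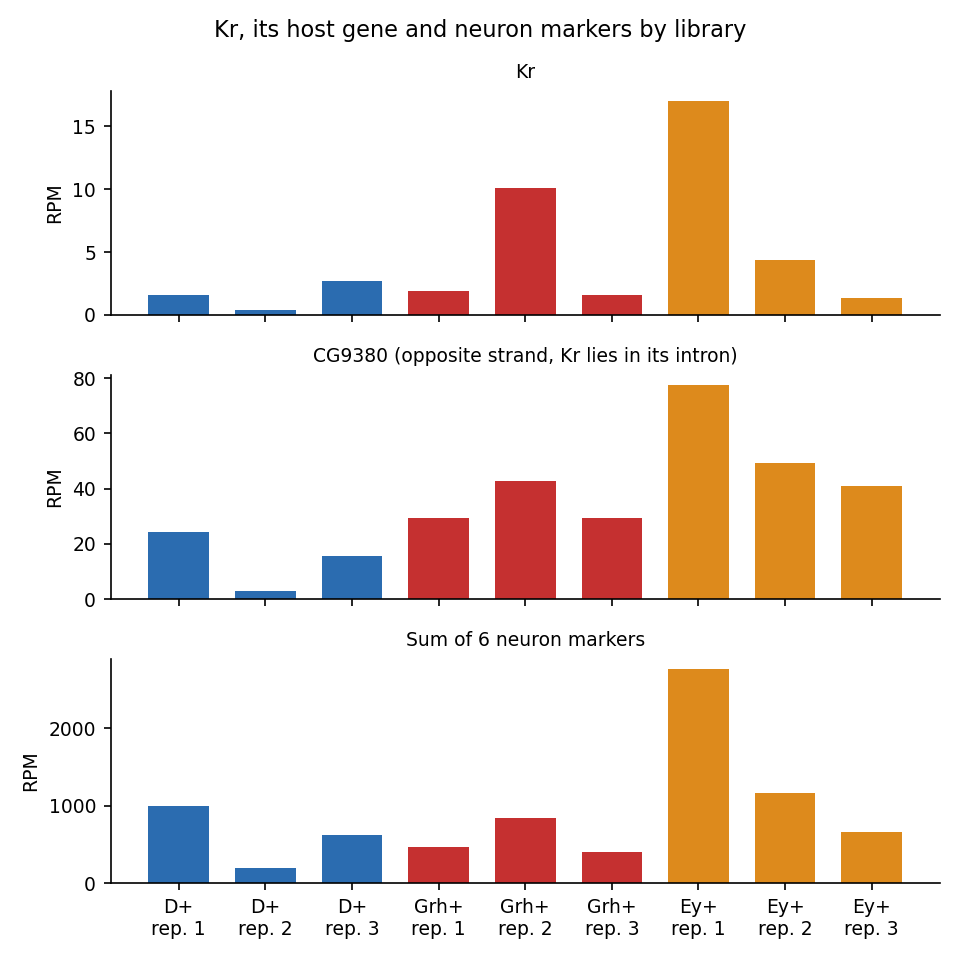
RPM of Kr, of CG9380 and of the sum of 6 neuron markers in each of the 9 libraries, 1 bar per library coloured by state, with linear axes from 0. Most of each sum is elav. Ey+ replicate 1 is the highest library in all 3 panels (17.0, 77.4 and 2763 RPM) and D+ replicate 2 the lowest (0.358, 2.97 and 193.9 RPM).

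Libraries of many genes separated by state in RPM, so that separation alone marks few genes out. Of the series, 3 of the 6 did not overlap between Grh+ and D+ INPs (nub, pdm2 and svp), as did 29.7% of all genes tested. Between Ey+ and D+ INPs 3 of 6 did not overlap (nub, cas and svp), as did 24.5% of all genes tested. Between Grh+ and Ey+ INPs 2 of 6 did not overlap (nub and svp), as did 23.2% of all genes tested.

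Genes that act with the embryonic series were read from lists of known roles. Of the 4 genes that close the series or subdivide the Castor window (grh, sqz, nab and kn), 2 rose in Grh+ against D+ INPs, grh and sqz. The list median log2 fold change was 0.80 beside 0.00 for all genes tested. Grh-GFP chose the Grh+ cells, so the rise of grh by 1.85 is no finding, and it enters the count and the median. sqz rose by 1.26, while nab (-0.16) and kn (0.34) were not called. 1 of the 4 rose in Ey+ against D+ INPs, with a median of 0.45 beside -0.02. Of all genes tested 3.16% and 3.95% were called in these comparisons. None of the 4 was called between Grh+ and Ey+ INPs, where 0 had an unadjusted p under 0.05 in edgeR's quasi-likelihood test (8.43% of all genes tested) and DESeq2 called 0.

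grh encodes the factor that follows Castor in the embryo and defines the Grh+ state here, and the Grh-GFP line carried an extra tagged copy of it. It had 237.5, 88.1 and 171.6 RPM in D+ libraries, 578.5, 838.4 and 574.4 RPM in Grh+ libraries and 382.1, 312.2 and 224.4 RPM in Ey+ libraries. Grh+ libraries were highest and did not overlap with those of the other states. The log2 fold change of Grh+ against D+ INPs was 1.85 (SE 0.41, adjusted p = 0.0307 by edgeR's quasi-likelihood test), a call that was lost in each case without D+ replicate 3, Grh+ replicate 1, 2 or 3 or Ey+ replicate 2, with an adjusted p of up to 0.098.

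sqz (squeeze) encodes a zinc finger factor that, with Nab, subdivides the Castor window of an embryonic thoracic neuroblast. It had 51.7, 35.3 and 35.0 RPM in D+ libraries, 105.2, 120.9 and 99.6 RPM in Grh+ libraries and 78.7, 104.4 and 113.5 RPM in Ey+ libraries. Every Grh+ and Ey+ library lay above the D+ libraries. Its log2 fold change was 1.26 (SE 0.18, adjusted p = 0.00786) in Grh+ and 1.40 (SE 0.18, adjusted p = 0.00385) in Ey+ against D+ INPs by edgeR's quasi-likelihood test. The first of these had an adjusted p of 0.0504 without Grh+ replicate 1.

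Of 8 regulators of competence and of the switch between windows that were tested (dan, danr, Psc, Su(z)2, pros, Mi-2, pum and brat), 2 rose and 0 fell in Grh+ and in Ey+ against D+ INPs. In these comparisons 3.16% and 3.95% of all genes tested were called. The list median was 0.21 in Grh+ and 1.11 in Ey+ INPs against D+ INPs (0.14 in Grh+ INPs without Grh+ replicate 2 and 0.75 in Ey+ INPs without Ey+ replicate 1), beside 0.00 and -0.02 for all genes tested. The 2 genes that rose encode nuclear factors with a Pipsqueak-type DNA-binding domain, Distal antenna (dan) and Distal antenna-related (danr). Between Grh+ and Ey+ INPs 0 of the 8 were called by edgeR's quasi-likelihood test or DESeq2. There 2 had an unadjusted p under 0.05 (pum and Psc), as did 8.43% of all genes tested. The median was -0.63 (-0.33 without Ey+ replicate 1) beside 0.03 for all genes tested. For Ey+ against D+ INPs DESeq2 called 4, adding brat and Su(z)2.

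danr had 31.0, 26.0 and 32.8 RPM in D+ libraries, 146.5, 144.0 and 128.7 RPM in Grh+ libraries and 69.9, 110.3 and 127.9 RPM in Ey+ libraries. Its log2 fold change was 2.07 (SE 0.17, adjusted p = 0.000553) in Grh+ and 1.88 (SE 0.17, adjusted p = 0.000552) in Ey+ against D+ INPs by edgeR's quasi-likelihood test. dan had 35.9, 47.2 and 31.7 RPM in D+ libraries, 125.9, 93.9 and 115.0 RPM in Grh+ libraries and 73.9, 117.9 and 130.4 RPM in Ey+ libraries. Its log2 fold change was 1.40 (SE 0.20, adjusted p = 0.00786) in Grh+ and 1.59 (SE 0.20, adjusted p = 0.00349) in Ey+ against D+ INPs by the same test. The D+ libraries lay below all others for both genes. The dan call of Grh+ against D+ INPs was lost without Grh+ replicate 1 (adjusted p = 0.0634) or Grh+ replicate 3 (adjusted p = 0.0508).

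**Figure D5:**
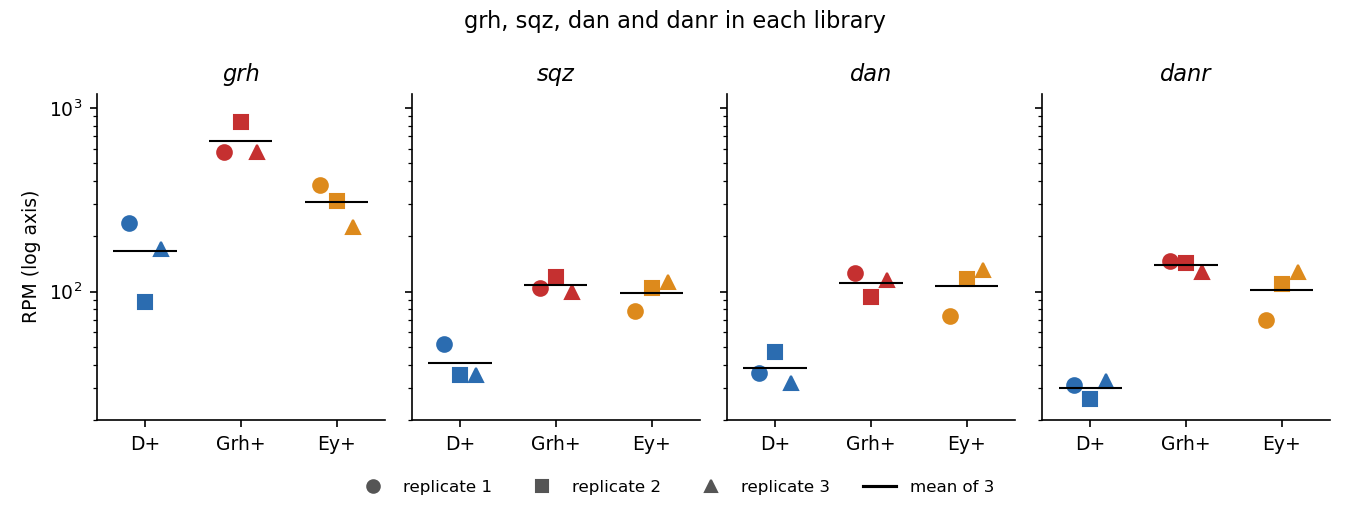
RPM of grh, sqz, dan and danr in each library on a log axis, by state, with replicate numbers as symbols and the mean of 3 libraries as a bar. sqz, dan and danr are lowest in all D+ libraries (26.0 to 51.7 RPM) and reach 69.9 to 146.5 RPM in the other states, and grh peaks in Grh+ libraries.

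Among 7 tested genes that time larval neuroblasts (chinmo, br, mamo, Syp, Eip93F, EcR and usp), edgeR's quasi-likelihood test called 0 in each comparison. Of all genes tested it called 3.16% in Grh+ against D+, 3.95% in Ey+ against D+ and 0.235% in Grh+ against Ey+ INPs. At an unadjusted p under 0.05 there were 1 of the 7 in Grh+ against D+ (23.8% of all genes tested), 4 in Ey+ against D+ (26.5% of all) and 4 in Grh+ against Ey+ INPs (8.43% of all). DESeq2 called 0, 1 (br) and 0 of the 7. The list medians were -0.31, 1.79 and -1.80 on the log2 scale, and lin-28 did not pass the filter. These medians moved with single libraries. In Ey+ replicate 1 Syp had 6914 RPM against 894.3 and 486.9 RPM in Ey+ replicates 2 and 3, and chinmo, Eip93F and br were likewise the highest of the Ey+ libraries there. Without Ey+ replicate 1 the medians of Ey+ against D+ and of Grh+ against Ey+ INPs were -0.52 and -0.09, with 2 and 0 unadjusted p under 0.05, over 8 genes since lin-28 then passed the filter, and without Grh+ replicate 2 the median of Grh+ against D+ INPs was -1.12. The other POU genes vvl, acj6 and pdm3 gave 0 calls of 3 in each comparison by edgeR's quasi-likelihood test, beside the same shares of all genes, and by DESeq2. There was 1 unadjusted p under 0.05 (pdm3, Grh+ against D+ INPs), and the medians were 1.27, 0.37 and 0.59. Without Grh+ replicate 2 the first median was 0.31 and the last -0.22, and without Ey+ replicate 1 the other was -0.09.

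Of 6 genes that mark neurons born at set times in the embryonic nerve cord (eve, run, zfh2, ap, eya and dimm), 5 were tested and 1, run, fell in Grh+ against D+ INPs, where 3.16% of all genes tested were called. run encodes a Runt-domain factor. It had 319.8, 212.5 and 362.5 RPM in D+, 110.1, 140.7 and 114.5 RPM in Grh+ and 190.0, 248.4 and 226.1 RPM in Ey+ libraries. The log2 fold change of Grh+ against D+ INPs was -1.45 (SE 0.22, adjusted p = 0.00921 by edgeR's quasi-likelihood test), and the call was lost without Grh+ replicate 1 (adjusted p = 0.071) or Grh+ replicate 3 (adjusted p = 0.0521). The other comparisons called 0 of the 5, with 0 and 3 at an unadjusted p under 0.05 (26.5% and 8.43% of all genes tested), and DESeq2 called eya and run for Grh+ against Ey+ INPs. The list medians were 0.16, -0.30 and 0.61, and without Grh+ replicate 2 the first and last were -0.43 and -1.13.

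Among the temporal genes of INPs, D, grh and ey encode the tagged proteins that chose the cells. A high level of each in its own state is therefore no finding. The Grh+ cells were sorted on Grh and not on Ey, and opa and ham played no part in the sorting. D fell by 2.52 on the log2 scale (SE 0.26) in Grh+ and by 4.33 (SE 0.28) in Ey+ against D+ INPs, and ey rose by 5.31 (SE 0.37) and 5.75 (SE 0.38), with adjusted p from 9.5e-05 to 0.00192 by edgeR's quasi-likelihood test. D was 1.81 higher (SE 0.25, adjusted p = 0.0245) in Grh+ than in Ey+ INPs, a call lost without any of the Grh+ libraries or without Ey+ replicate 2 or 3. opa, a zinc finger gene of the INP series, fell by 1.08 (SE 0.23, adjusted p = 0.0287) in Grh+ against D+ INPs, and 11 of 16 alternatives lost this call. ham was not called in any comparison. Among the progenitor markers erm fell by 1.11 in Grh+ and by 2.19 in Ey+ against D+ INPs, and insc and btd fell by 1.04 and 2.96 in Ey+ INPs. dpn was higher, by 0.71 in Grh+ (adjusted p = 0.0644) and 0.79 in Ey+ INPs (adjusted p = 0.0417) by edgeR's quasi-likelihood test, and was not called. ase, wor, mira and pnt were not called either, and the medians over the 8 markers were -0.08 and 0.05. The calls were 1 and 3 of the 8, beside 3.16% and 3.95% of all genes tested. Between Grh+ and Ey+ INPs edgeR's test called 0 of the 8, with erm 1.08 and btd 2.00 higher in Grh+ INPs (adjusted p = 0.0807 and 0.168). DESeq2 called both. There 3 of the 8 (erm, btd and wor, the last 0.42 lower) had an unadjusted p under 0.05, as did 8.43% of all genes tested. The erm call of Grh+ against D+ INPs was lost in 7 of 16 alternatives, among them each that left out a Grh+ library, D+ replicate 2 or Ey+ replicate 2, through an adjusted p of up to 0.0993 or a log2 fold change under 1 in size. The insc call was lost in 5 of 16, among them those without D+ replicate 3 or Ey+ replicate 1 or 2, and the btd call without Ey+ replicate 2 (adjusted p = 0.0601). Whether these differences in marker levels bear on the svp values was not tested.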

How the data were processed

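RNA of sorted D+, Grh+ and Ey+ INPs was primed with oligo-dT and sequenced as 50 bp single-end reads from Nextera libraries with molecular tags. The deposited values are counts per gene, which the authors made with BWA 0.7.12 (removal of ribosomal RNA), TopHat2 2.1.1, bedtools 2.26.0 and HTSeq 0.6.1 on FlyBase gene models, without regard to strand. Reads shared between genes were set aside, and whether reads marked as duplicates were counted is not given in the sources used here. The 5 summary lines of each file (34.7% to 53.2% of its counts) were left out.

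Samples were grouped by their labels. edgeR 4.0.16 in R 4.3.3 fitted all 9 libraries with TMM (factors 0.74 to 1.13), its filter on low counts, 1 coefficient per state and Benjamini-Hochberg adjustment over 10193 genes. The common biological coefficient of variation was 0.477. DESeq2 1.42.0, other scalings, no filter, a replicate block, 6-library fits and leaving out each library were alternatives. RPM used each library's counts on genes, and intervals cover the spread between libraries. Positions and exon lengths came from Ensembl's BDGP6.54 annotation. The 6 genes and the lists were chosen with earlier results of these data known. All 6 genes are described. Genes of the lists were named when called, and for a called member the 5 most similar genes were named. Of the listed genes, nos, Imp, let-7-C and para were not analysed here. Promoter and protein sequences were not used here.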

Additional observations from a re-analysis of the deposited data

How the results depend on the processing

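The count of called genes of the series (1, 1 and 0 of 6) was the same under each of 17 settings per comparison, and 278 of 285 values of single genes of the series kept their direction and their side of the call rule. The log2 fold change of svp stayed between 6.39 and 6.96 in Grh+ and between 5.60 and 6.17 in Ey+ against D+ INPs. The 7 values that changed direction were all of uncalled differences. hb in Grh+ against D+ INPs was 0.0313 with a replicate block, 2.11 without D+ replicate 2 and 0.237 without Grh+ replicate 3, within a range of -1.39 to 2.11. Kr in Grh+ against Ey+ INPs was 0.468 without Ey+ replicate 1, within -2.56 to 0.47. cas in Grh+ against Ey+ INPs was 0.229 with library totals in place of TMM, 0.0685 without Grh+ replicate 2 and 0.0609 without Grh+ replicate 2 and Ey+ replicate 1, a pair chosen after seeing the data, within -0.16 to 0.23. The cause was not tested.

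Same-numbered libraries did not deviate together in every pair of states (r from -0.26 to 0.50, with 0.50 for Grh+ and Ey+ replicate 3), and the labels give the numbers no shared origin, so the replicate block was not read as a pairing. With the replicate block 214, 293 and 10 genes were called over all genes, against 322, 403 and 24 without it. Over the other settings these counts ranged from 53 to 505, from 107 to 657 and from 0 to 173, so the background shares given beside the series depend on the libraries and the tool (DESeq2 called 444, 588 and 173). With library totals in place of TMM 224 of 275 calls in Grh+ against D+ INPs were higher, against 176 of 322. Of the calls in list and marker genes named, 42 values lost the call (6 for grh, 1 for sqz, 2 for dan, 2 for run, 11 for opa, 7 for D, 7 for erm, 5 for insc and 1 for btd). Low counts limit hb and pdm2.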
